A study of Mus musculus with 9 samples.

Results

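The Hippo kinase cascade was followed through 10 genes, Lats1, Lats2, Stk3, Stk4, Sav1, Mob1a, Mob1b, Nf2, Taok1 and Wwc2, chosen by symbol from the 21676 genes of the count and FPKM tables. All 10 were found and all 10 passed the filter on low counts, as did 13807 genes in all. The cells were cultured B16 cells, a line from a mouse melanoma, in 3 groups of 3 libraries: the shAD4-2 and shAD4-1 hairpin derivatives, which the design text calls knockdown derivatives, and a control hairpin (spelled shCotrol in the labels). The series title names the adhesion receptor ADGRL4 and Gαs-YAP1 signalling, so the question asked here was whether transcripts of the kinases that act on YAP1 differed between hairpin and control cells. Adgrl4 itself was not analysed here, so the labels carry no check from it. Whether each derivative is a single clone is not given in the sources used here, and p-values measure the spread between these libraries.

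In the Hippo pathway the kinases MST1 (gene Stk4) and MST2 (gene Stk3), held by the scaffold SAV1, phosphorylate and activate the kinases LATS1 and LATS2, with MOB1 proteins as coactivators. Active LATS kinases phosphorylate the coactivators YAP1 and TAZ, which are then kept out of the nucleus and degraded. NF2, also called merlin, TAO kinases and WWC proteins act upstream and favour LATS activation. Signals through Gαs and protein kinase A are known to activate LATS kinases in cultured cells. The pathway is regulated largely by phosphorylation, which read counts do not measure.

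The libraries held 31.3 to 36.9 M counted reads. Melanocytic markers (8 of 8 in the table) summed to 10850 to 11840 CPM in shAD4-2, 9972 to 10210 CPM in shAD4-1 and 11580 to 13390 CPM in control libraries, counted over unscaled totals. Of 5 leukocyte markers 4 were in the table, and their sum was 4.12 to 4.47 CPM in shAD4-2, 2.25 to 3.30 CPM in shAD4-1 and 0.11 to 0.318 CPM in control libraries. In hairpin libraries nearly all of that was Lyz2, while the defining marker Ptprc had 0 reads in each shAD4-2 and control library and at most 1 in an shAD4-1 library. Fibroblast markers (5 of 6 in the table) summed to 12.2 to 13.8 CPM in shAD4-2, 10.2 to 12.1 CPM in shAD4-1 and 5.30 to 7.40 CPM in control libraries. Of these, Col1a2 had 133 to 211 reads in shAD4-2, 112 to 158 in shAD4-1 and 13 to 27 in control libraries. In the same order Col1a1 had 139 to 173, 129 to 167 and 69 to 105 reads, and Pdgfra 99 to 118, 118 to 158 and 69 to 155. Col3a1 had at most 4 reads in any library, and Lum had 0 in all but 1 library, where it had 1. Endothelial markers (3 of 5) reached at most 0.289 CPM and the keratinocyte marker in the table (1 of 4) at most 0.11 CPM in any library. The 13 mitochondrially encoded genes took 3.60 to 3.89% of the reads in shAD4-2, 3.62 to 3.81% in shAD4-1 and 2.30 to 2.61% in control libraries. The part of these shifts in the results below was not tested, and in bulk RNA fewer cells of a type cannot be told apart from less RNA per cell. Among the controls, replicate 1 was the least like the rest, with a chi-square per degree of freedom of 12.3 and 17.8 against 3.41 between replicates 2 and 3.

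Against control, 9 of the 10 cascade genes rose and 1, Sav1, fell with each hairpin (edgeR's quasi-likelihood test, Benjamini-Hochberg adjusted p under 0.05). Over all tested genes 69.0% were called with shAD4-2 and 65.0% with shAD4-1, so that being called was common. With shAD4-2 34.2% of all genes were called higher and 34.8% lower, and with shAD4-1 32.7% were higher and 32.3% lower. The changes were modest in size. In absolute log2 fold change the members had a median of 0.44 with shAD4-2 and 0.47 with shAD4-1, beside 0.38 and 0.34 over all tested genes, and no member reached a 2-fold change. The signed medians were 0.33 and 0.43, beside -0.01 and -0.01 over all genes. The members were chosen with earlier results of these data known, so neither their medians nor the count that rose tests the cascade as a set. Libraries of hairpin and control cells did not overlap for any member in either comparison, as was true of 70.6% of all genes for shAD4-2 and 68.0% for shAD4-1. The 3 control libraries served both comparisons.

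**Figure D1:**
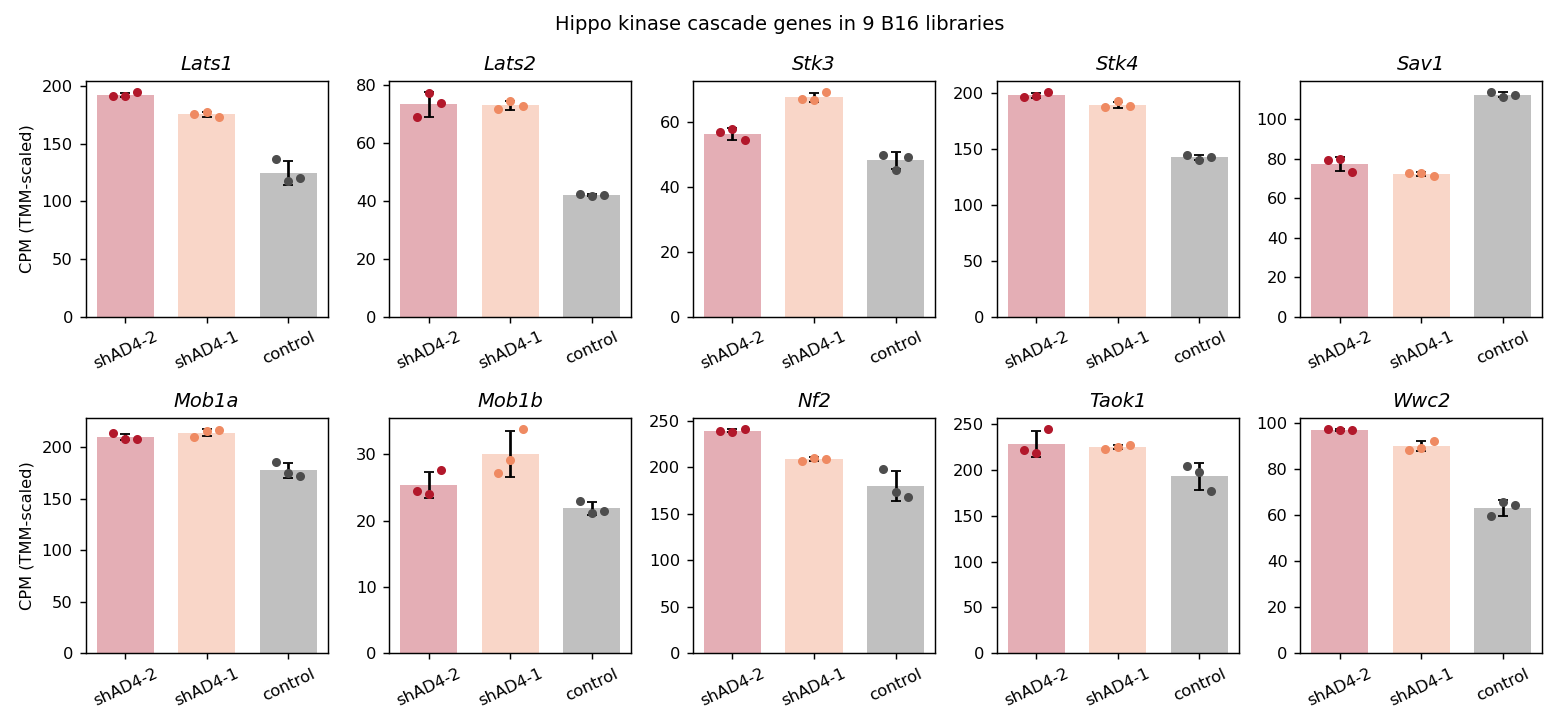
Counts scaled to library size (CPM, TMM-scaled, y axis from 0) of each member in the 3 libraries of shAD4-2, shAD4-1 and control cells. Points are libraries, bars group means and whiskers SDs; in the Sav1 panel the control libraries are highest, and in the other 9 panels they are lowest.

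The LATS kinases, which phosphorylate YAP1 and TAZ, both rose, and Lats2 rose the most of all members. Lats2 (gene ID 50523) had 68.8, 77.2 and 73.8 CPM in shAD4-2, 71.6, 74.5 and 72.9 CPM in shAD4-1 and 42.3, 41.7 and 41.9 CPM in control libraries. The control libraries lay close together and far below every hairpin library, while the ranges of the hairpins overlapped. The log2 fold change was 0.80 (SE 0.05, 1.74-fold, adjusted p = 8.76e-11) with shAD4-2 and 0.80 (SE 0.05, 1.74-fold, adjusted p = 1.1e-10) with shAD4-1. Of all tested genes, 21.8% changed as far as Lats2 or farther with shAD4-2 and 18.4% with shAD4-1. Between the hairpins the difference was 0.0047, with a 95% interval of -0.10 to 0.11 (adjusted p = 0.955). In the mouse transcripts of GENCODE M21, 41.2% of the 50-base windows of Lats2 also lie in Gm49361, a gene model that overlaps it on the same strand and has no row in the count table. How reads from that stretch were assigned is not given in the sources used here.

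Lats1 (gene ID 16798) had 191, 191 and 195 CPM in shAD4-2, 176, 178 and 173 CPM in shAD4-1 and 137, 118 and 120 CPM in control libraries. Control replicate 1 was the highest control and still lay below each hairpin library. Lats1 rose by a log2 fold change of 0.62 (SE 0.05, adjusted p = 1.35e-09) with shAD4-2 and of 0.49 (SE 0.05, adjusted p = 4.17e-08) with shAD4-1. Per length in the deposited FPKM, Lats1 was the more abundant LATS transcript. It stood at 26.3 ± 0.286 FPKM in shAD4-2, 24.0 ± 0.320 FPKM in shAD4-1 and 17.8 ± 1.54 FPKM in control cells (SD, n = 3). Lats2 stood at 12.8 ± 0.740 FPKM in shAD4-2, 12.7 ± 0.244 FPKM in shAD4-1 and 7.64 ± 0.0927 FPKM in control cells (SD, n = 3). Together they summed to 39.1 ± 0.829, 36.7 ± 0.475 and 25.4 ± 1.63 FPKM in the same order of groups. The Lats2 levels and this sum carry the overlap of Lats2 with Gm49361.

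The promoter of Lats2 is shown because Lats2 had the largest change and is known as a target of YAP1 with TEAD factors in feedback on the pathway. RefSeq (GRCm38.p6) gives 2 starts for it, and the window at chr14:57746074-57746373 (minus strand), from 250 bases before to 50 after the start, holds a match to GGAATG, the core of the TEAD recognition sequence, just downstream of the start. Capitals mark the match, and the sequence is printed 5′ to 3′ on the gene's strand. The window at the other start, chr14:57734369-57734668, holds no match and is not printed.
Lats2: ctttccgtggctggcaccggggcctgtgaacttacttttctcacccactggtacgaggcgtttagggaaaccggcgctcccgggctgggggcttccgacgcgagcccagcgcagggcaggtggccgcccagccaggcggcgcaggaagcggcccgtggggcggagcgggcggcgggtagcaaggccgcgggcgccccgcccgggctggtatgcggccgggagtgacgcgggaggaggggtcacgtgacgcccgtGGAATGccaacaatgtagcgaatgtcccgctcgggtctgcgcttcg

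Both MST kinase genes rose. Stk4 (MST1; gene ID 58231) had 196, 197 and 201 CPM in shAD4-2, 187, 193 and 189 CPM in shAD4-1 and 145, 140 and 143 CPM in control libraries. All hairpin libraries lay above all controls, with log2 fold changes of 0.47 (SE 0.04, adjusted p = 1.11e-09) for shAD4-2 and 0.41 (SE 0.04, adjusted p = 9.74e-09) for shAD4-1. Stk3 (MST2; gene ID 56274), the paralogue of Stk4, had 57.0, 57.7 and 54.3 CPM in shAD4-2, 66.9, 66.6 and 69.1 CPM in shAD4-1 and 49.9, 45.3 and 49.2 CPM in control libraries. The 3 groups did not overlap and stood in the order shAD4-1, shAD4-2, control from high to low. Stk3 rose by 0.23 (SE 0.05, adjusted p = 0.000668) with shAD4-2 and by 0.49 (SE 0.05, adjusted p = 1.08e-07) with shAD4-1 on the log2 scale. It was the least abundant member per length in every group, at 4.93 ± 0.158 FPKM in shAD4-2, 5.90 ± 0.117 FPKM in shAD4-1 and 4.38 ± 0.245 FPKM in control cells (SD, n = 3), where Stk4 stood at 36.1 ± 0.446, 34.5 ± 0.461 and 27.0 ± 0.576 FPKM. That rank depends on the lengths implied by the deposited FPKM, 11279 bases for Stk3 and 3171 for Mob1b. The GENCODE M21 transcripts of these genes hold 6158 and 15048 distinct 50-base windows, and in CPM Mob1b was the lowest member. In GENCODE M21 no 50-base window was shared between the transcripts of Stk3 and Stk4, of Lats1 and Lats2, or of Mob1a and Mob1b.

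Sav1, the scaffold that brings the MST kinases to LATS, was the member that fell. Sav1 (gene ID 64010) had 79.4, 79.7 and 73.1 CPM in shAD4-2, 72.9, 72.6 and 71.4 CPM in shAD4-1 and 114, 111 and 112 CPM in control libraries. Each hairpin library was below each control. The log2 fold change was -0.54 (SE 0.04, adjusted p = 2.91e-09) with shAD4-2 and -0.64 (SE 0.04, adjusted p = 3.45e-10) with shAD4-1. In GENCODE M21, 24.7% of the 50-base windows of Sav1 transcripts also lie in Atl1, a gene for the membrane-shaping GTPase atlastin-1 that runs on the opposite strand and overlaps the 3′ end of Sav1. Atl1 fell too: it had 24.1 ± 0.720 CPM in shAD4-2, 19.9 ± 1.25 CPM in shAD4-1 and 35.8 ± 4.65 CPM in control cells (SD, n = 3), with log2 fold changes of -0.57 (SE 0.08) and -0.85 (SE 0.08; edgeR, adjusted p = 5.19e-06 and 4.26e-08). Since the strand setting of the counting is not given, reads from the shared stretch cannot be assigned to either gene with certainty, and the part of Atl1 in the fall of Sav1 was not tested.

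The promoter window of Sav1 (RefSeq, GRCm38.p6, chr12:69986953-69987252, minus strand) is shown because it belongs to the member that fell. Capitals mark a match to the reverse complement of GGAATG, which begins 106 bases before the start.
Sav1: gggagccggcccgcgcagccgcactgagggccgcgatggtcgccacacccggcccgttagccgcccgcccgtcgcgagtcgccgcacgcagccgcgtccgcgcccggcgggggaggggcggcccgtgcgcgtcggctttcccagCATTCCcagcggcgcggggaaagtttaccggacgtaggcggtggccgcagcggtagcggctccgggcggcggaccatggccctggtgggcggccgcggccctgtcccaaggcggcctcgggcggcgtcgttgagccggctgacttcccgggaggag

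The MOB1 coactivators, which bind and activate LATS kinases, both rose. Mob1a (gene ID 232157) had 213, 208 and 207 CPM in shAD4-2, 210, 215 and 216 CPM in shAD4-1 and 185, 174 and 172 CPM in control libraries. The hairpin libraries overlapped each other and lay above the controls, with log2 fold changes of 0.24 (SE 0.04, adjusted p = 1.77e-05) for shAD4-2 and 0.27 (SE 0.04, adjusted p = 5e-06) for shAD4-1. Mob1b (gene ID 68473), a close paralogue, had 24.4, 24.1 and 27.6 CPM in shAD4-2, 27.2, 29.1 and 33.8 CPM in shAD4-1 and 23.0, 21.1 and 21.5 CPM in control libraries. It had the fewest reads of the members and the widest scatter within the hairpin groups. The log2 fold change was 0.46 (SE 0.08, adjusted p = 6.61e-05) with shAD4-1. With shAD4-2 it was 0.21 (SE 0.08, adjusted p = 0.0279), and it no longer passed when control replicate 2 (adjusted p = 0.0745), control replicate 3 (0.0507) or shAD4-2 replicate 3 (0.118) was left out. Per length Mob1a was the most abundant member in every group, at 60.3 ± 0.886 FPKM in shAD4-2, 61.5 ± 0.930 FPKM in shAD4-1 and 53.1 ± 2.33 FPKM in control cells (SD, n = 3).

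The upstream genes Nf2, Taok1 and Wwc2 all rose. Wwc2 (gene ID 52357), of the KIBRA family of scaffolds, had 97.3, 96.7 and 96.7 CPM in shAD4-2, 88.3, 89.0 and 92.3 CPM in shAD4-1 and 59.4, 65.8 and 64.2 CPM in control libraries. The groups did not overlap, and the log2 fold change was 0.62 (SE 0.05, adjusted p = 8.68e-10) with shAD4-2 and 0.51 (SE 0.05, adjusted p = 1.52e-08) with shAD4-1. Of its 50-base windows, 6.89% also lie in Cldn22, which is on the opposite strand and has no row in the count table. Nf2 (gene ID 18016), the tumour suppressor merlin that brings LATS kinases to the membrane, had 239, 238 and 241 CPM in shAD4-2, 207, 211 and 209 CPM in shAD4-1 and 198, 174 and 168 CPM in control libraries. Control replicate 1 lay near the shAD4-1 libraries. Nf2 rose by 0.41 (SE 0.05, adjusted p = 4.8e-07) with shAD4-2 and by 0.21 (SE 0.05, adjusted p = 0.000778) with shAD4-1 on the log2 scale. Without single libraries the value for shAD4-1 ran from 0.17 to 0.29. Taok1 (gene ID 216965), a kinase that phosphorylates MST and LATS kinases, had 221, 219 and 244 CPM in shAD4-2, 223, 225 and 227 CPM in shAD4-1 and 204, 198 and 176 CPM in control libraries. The hairpin groups overlapped each other and not the controls, and the rises were 0.24 (SE 0.05, adjusted p = 0.000363) and 0.22 (SE 0.05, adjusted p = 0.000883) for shAD4-2 and shAD4-1.

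The window of Wwc2 (RefSeq, GRCm38.p6, chr8:47990495-47990794, minus strand) is shown because it held the most matches to GGAATG among the members, 3 over both strands, which begin 203, 94 and 79 bases before the start and are in capitals.
Wwc2: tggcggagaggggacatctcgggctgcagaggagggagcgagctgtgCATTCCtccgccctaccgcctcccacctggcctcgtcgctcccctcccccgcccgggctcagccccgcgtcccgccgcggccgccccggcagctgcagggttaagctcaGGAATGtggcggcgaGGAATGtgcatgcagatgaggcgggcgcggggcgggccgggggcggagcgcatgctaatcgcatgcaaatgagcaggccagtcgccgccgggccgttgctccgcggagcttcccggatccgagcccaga

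RefSeq promoter windows were matched for 9 of the 10 members, 11 windows in all. GGAATG, on either strand, was found in 4 of the 11, belonging to Lats2, Sav1, Wwc2 and Mob1a, where 14.7% of 32851 windows of the same length in the RefSeq table hold it. The windows with a match belonged to the member with the largest rise, to the member that fell and to 2 others. Those of Lats1, Stk4, Mob1b, Nf2 and Taok1 held none. The cAMP response element TGACGTCA, which does not contain GGAATG, was found in 0 of the 11 and in 1.79% of all windows. A match is a description of these letters and does not show binding.

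**Figure D2:**
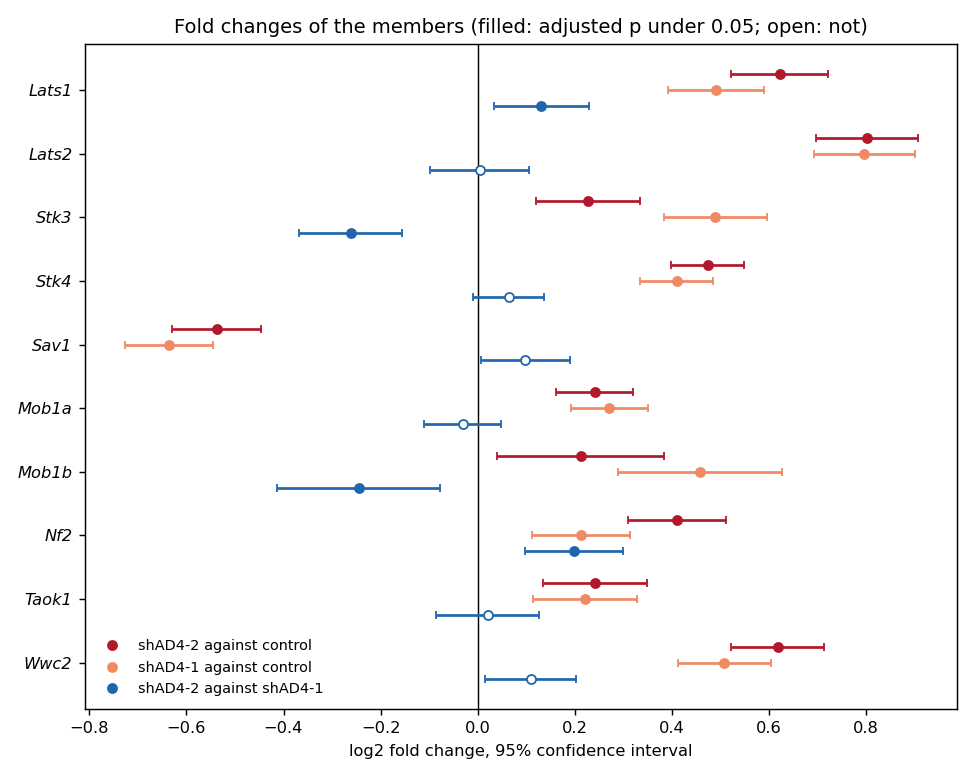
Log2 fold changes (x axis) of the 10 members with 95% confidence intervals, for shAD4-2 against control, shAD4-1 against control and shAD4-2 against shAD4-1. Filled points passed an adjusted p of 0.05; Sav1 is left of 0 in both comparisons with control, at -0.54 and -0.64, and the other members are right of it.

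Compared directly, the hairpins differed for 4 of the 10 members, 2 higher and 2 lower in shAD4-2, where 27.4% of all tested genes were called, 13.4% higher and 14.0% lower. The libraries of the hairpins did not overlap for 6 members, as for 44.5% of all genes. Nf2 was higher in shAD4-2 than in shAD4-1 by a log2 fold change of 0.20 (SE 0.05, adjusted p = 0.00499) and Stk3 was lower by -0.26 (SE 0.05, adjusted p = 0.000854). Both calls held when any of the 9 libraries was left out. Mob1b was lower by -0.25 (SE 0.08, adjusted p = 0.0292) although its libraries overlapped, at up to 27.6 CPM in shAD4-2 and from 27.2 CPM in shAD4-1. Lats1 was higher by 0.13 (SE 0.05, adjusted p = 0.0438). The call for Lats1 was lost without any single library of the 6 hairpin libraries (adjusted p = 0.0882 to 0.13), and that for Mob1b without shAD4-1 replicate 2 or 3 or shAD4-2 replicate 1 or 2 (adjusted p = 0.0513 to 0.196). Leaving out any of those last 4 libraries thus left 2 members called. For the 6 members not called, the 95% intervals of the log2 difference ran from -0.10 to 0.11 for Lats2, -0.01 to 0.14 for Stk4, 0.0064 to 0.19 for Sav1, -0.11 to 0.05 for Mob1a, -0.09 to 0.13 for Taok1 and 0.02 to 0.20 for Wwc2. Wwc2 was called without control replicate 1 (adjusted p = 0.0196) and Sav1 without shAD4-2 replicate 3 (adjusted p = 0.0301).

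Ratios between genes were taken within each library on the FPKM scale, which divides counts by the gene length used in the deposited values. The lengths behind the deposited FPKM set the level of a ratio of 2 genes, and not its log2 difference between groups. In deposited FPKM, Sav1 and the summed MST kinases stood at about equal levels in control cells and not in hairpin cells. That level depends on the implied lengths, such as 3663 bases for Sav1 and 11279 for Stk3. The lengths also weight Stk3 against Stk4 in the sum, and so bear on the log2 difference of this ratio too. Sav1 over Stk3 plus Stk4 was 0.525, 0.524 and 0.477 in shAD4-2, 0.491, 0.478 and 0.476 in shAD4-1 and 0.997, 1.02 and 0.996 in control libraries. The difference in the log2 ratio was -0.98 for shAD4-2 and -1.06 for shAD4-1 against control, and a two-sided exact permutation test over libraries returned p = 0.1 each time, the smallest value that 3 against 3 libraries allow. That ratio was chosen after its values were seen, and it carries the overlap of Sav1 with Atl1. Lats2 over Lats1 averaged 0.487 ± 0.0281 in shAD4-2, 0.532 ± 0.00977 in shAD4-1 and 0.432 ± 0.0309 in control cells (SD, n = 3), and the groups did not overlap (exact permutation p = 0.1 for each of the 3 pairs). The log2 difference of shAD4-2 from control was 0.18 and fell to 0.12 without control replicate 1. This ratio carries the overlap of Lats2 with Gm49361. Stk3 over Stk4 averaged 0.137 ± 0.00595 in shAD4-2, 0.171 ± 0.00497 in shAD4-1 and 0.162 ± 0.00586 in control cells (SD, n = 3), and the groups did not overlap (exact permutation p = 0.1 for each pair). The log2 difference from control was -0.25 in shAD4-2. In shAD4-1 it was 0.08, and became 0.020 with a pseudocount of 1 FPKM and 0.050 without control replicate 2. Mob1b over Mob1a averaged 0.131 ± 0.0112 in shAD4-2, 0.152 ± 0.0151 in shAD4-1 and 0.134 ± 0.00214 in control cells (SD, n = 3). It overlapped between shAD4-2 and control (exact permutation p = 0.8) and between the hairpins (p = 0.2), and not between shAD4-1 and control (p = 0.1). The log2 difference of shAD4-1 from control was 0.18, and 0.10 without shAD4-1 replicate 3; that between the hairpins was -0.21, and -0.13 without the same library. Over the 12 ratio comparisons the smallest Benjamini-Hochberg adjusted p was 0.133.

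**Figure D3:**
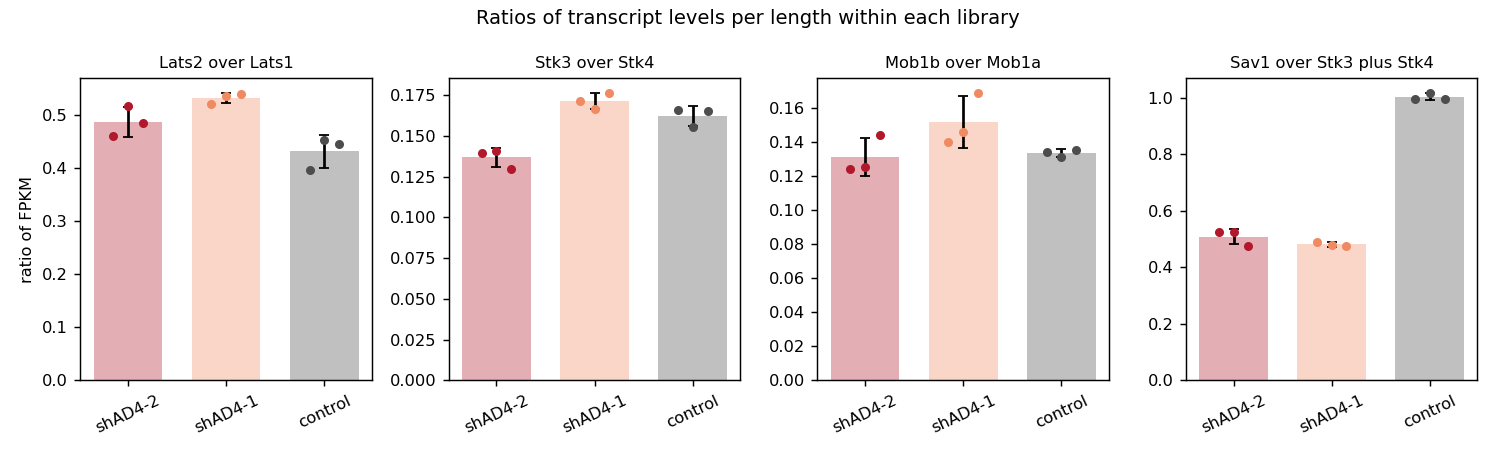
Ratio of FPKM values (y axis from 0) within each library for Lats2 over Lats1, Stk3 over Stk4, Mob1b over Mob1a and Sav1 over the sum of Stk3 and Stk4. Points are libraries, bars group means and whiskers SDs; the Sav1 ratio is near 0.5 in hairpin libraries and near 1 in control libraries.

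Ordered by FPKM, the members stood in control cells as Mob1a, Nf2, Sav1, Stk4, Lats1, Taok1, Wwc2, Lats2, Mob1b and Stk3. This order depends on the lengths implied by the deposited FPKM. For Wwc2 that length is 6625 bases, where its GENCODE M21 transcripts hold 13733 distinct 50-base windows. Sav1 was 3rd of the 10 in control cells and 5th in both hairpin groups, below Stk4 and Lats1, and no other pair of members changed places. In control libraries the ranges of Nf2 (31.0 to 36.8 FPKM) and Sav1 (31.1 to 32.0 FPKM) overlapped, and no other neighbours in the order did. Replicate scatter was small: the coefficient of variation of CPM ran from 0.370% for Wwc2 in shAD4-2 to 11.3% for Mob1b in shAD4-1 cells.

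Other genes of the pathway were taken from 6 lists, which held 70 genes of the table and 67 tested genes. With shAD4-2 30 of the 67 were called higher and 25 lower, with a median log2 fold change of 0.06, and with shAD4-1 29 were higher and 22 lower, with a median of 0.07. With both hairpins alike, 26 were higher and 19 lower, where 28.1% of all tested genes were higher with both and 27.6% lower with both.

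Several paralogues and relatives of the members fell, where 27.6% of all tested genes fell with both hairpins and 28.1% rose with both. Stk38 (NDR1), a kinase related to LATS, had 121 ± 1.90 CPM in shAD4-2, 123 ± 3.33 CPM in shAD4-1 and 153 ± 3.33 CPM in control cells (SD, n = 3; log2 fold changes -0.34 and -0.32). Its relative Stk38l (NDR2) fell with shAD4-2 (-0.17, adjusted p = 0.0074), and the value for shAD4-1 was -0.06 (adjusted p = 0.289). In the list of NDR kinases and other MOB proteins 1 of 7 rose and 3 fell with both, with Mob3a at 0.89 and 0.88 and Mob3b at -1.03 and -0.84 on the log2 scale for shAD4-2 and shAD4-1. Wwc1 (KIBRA), the paralogue of Wwc2, fell by 0.51 and 0.49 on the log2 scale with shAD4-2 and shAD4-1 (adjusted p = 9.19e-06 and 1.5e-05). Taok2, the paralogue of Taok1, fell by 0.63 and 0.72 (adjusted p = 7.29e-09 and 1.44e-09). Among the other TAO and MAP4K kinases, which can phosphorylate LATS or MST kinases, 2 of 9 rose and 4 fell with both, with Map4k3 at 0.52 and 0.49 and Map4k5 at 0.52 and 0.33.

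Among 16 tested junction and polarity scaffolds 7 rose and 4 fell with both hairpins, where 28.1% of all tested genes rose and 27.6% fell with both. The tyrosine phosphatase and YAP1 partner Ptpn14 stood at -0.51 and -0.51, while the polarity protein Patj stood at 0.89 and 0.95, as log2 fold changes for shAD4-2 and shAD4-1. Of 19 genes listed as inhibitors of MST or LATS kinases 10 rose and 4 fell with both. Ajuba, a LIM protein that binds and inhibits LATS kinases, had the largest rise of those named, with 167 ± 3.54 CPM in shAD4-2, 128 ± 3.83 CPM in shAD4-1 and 70.2 ± 3.31 CPM in control cells (SD, n = 3; log2 fold changes 1.25 and 0.87). Strn, a subunit of the STRIPAK phosphatase complex that acts on MST kinases, stood at 0.55 and 0.51, and Nedd4, a ubiquitin ligase, at 0.59 and 0.43. Of 5 tested RASSF genes, whose products bind MST kinases, 2 rose and 1 fell with both, with Rassf1 at 0.82 and 0.50, Rassf3 at 0.37 and 0.31 and Rassf2 at -1.30 and -0.91.

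Of 11 genes listed for the effectors and their turnover, 4 were higher and 3 lower with both hairpins. Of all tested genes 28.1% were higher with both and 27.6% lower. Yap1 rose by 0.48 and 0.37 (adjusted p = 5.82e-09 and 2.2e-07) and Wwtr1, which encodes TAZ, by 0.16 and 0.34 (adjusted p = 0.00993 and 9.33e-06) on the log2 scale for shAD4-2 and shAD4-1. Tead4, a DNA-binding partner of YAP1, had 9.58 CPM in control cells and stood at 0.81 and 0.88. The other TEAD genes rose less or were not called. Tead1, at 210 CPM in control cells, stood at -0.0094 (edgeR, adjusted p = 0.833) and 0.17 (adjusted p = 0.000509). Tead2 stood at 0.29 and 0.29, and Tead3 was not called, at -0.18 and -0.15. Vgll4, which competes with YAP1 for TEAD factors, stood at -0.55 and -0.39.

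**Figure D4:**
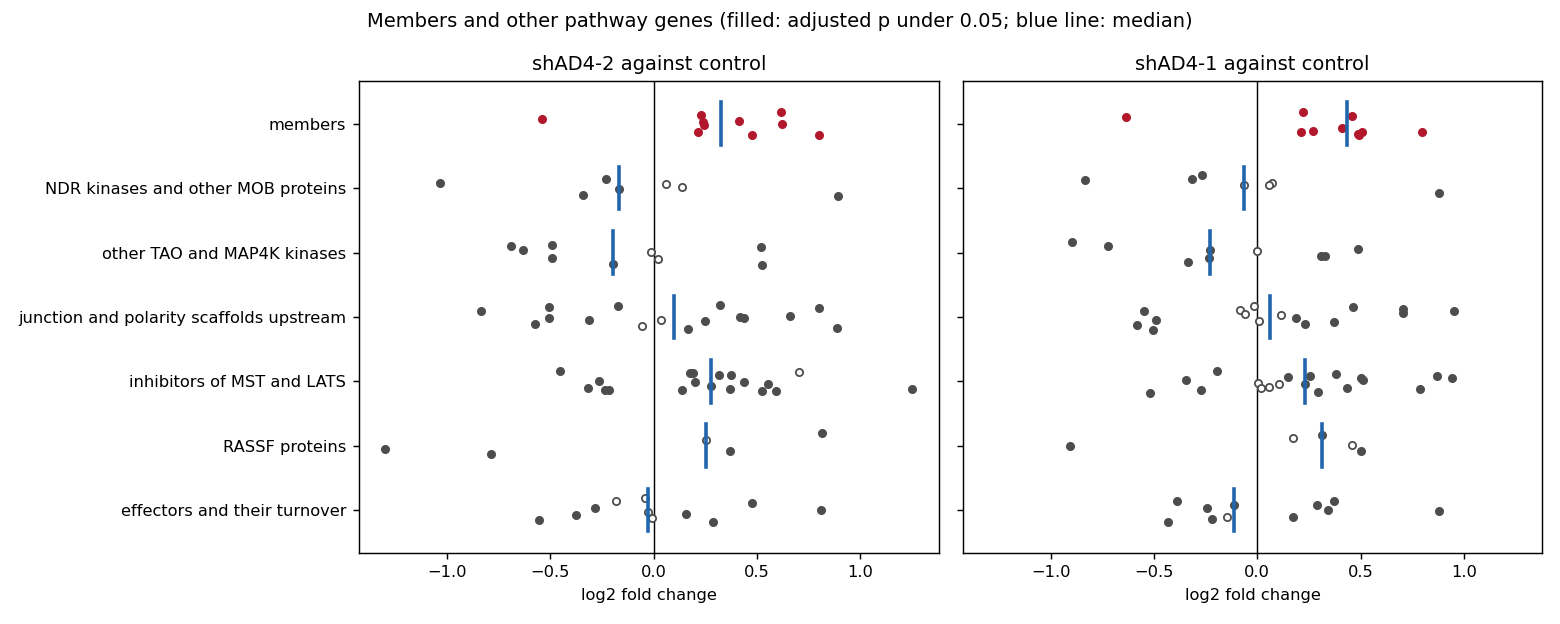
Log2 fold changes (x axis) of the members and of the genes of 6 other pathway lists, for shAD4-2 against control (left) and shAD4-1 against control (right). Each point is a gene, filled where its adjusted p was under 0.05, and the blue lines are medians; the members' medians are 0.33 and 0.43, and those of the other lists lie between -0.23 and 0.31.

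The genes whose levels followed a member most closely over the 9 libraries were found by the root mean square difference of log2 CPM, each gene centred on its own mean. For Lats1 they were Riok2 (0.0276), Cul1 (0.0365) and Dlg1 (0.0395), for Lats2 Nfat5 (0.0401) and Khsrp (0.0418), and for Nf2 Slf2 (0.0307), Hif1a (0.0318) and Cdc27 (0.0342). Of these, Dlg1 is among the listed polarity scaffolds. The nearest other member was Lats2 for Lats1 (0.140), Lats1 for Lats2 (0.140) and Lats1 for Nf2 (0.120). The genes named were chosen as the nearest of all genes compared, so that any other gene is farther by that choice.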

How the data were processed

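The 9 RNA-seq libraries, made from total RNA of B16 cells, are 3 each of shAD4-2, shAD4-1 and control. Named without versions, per the submitters' processing notes, are fastp, HISAT2, HTSeq and the build GRCm39; whether counting used strand is not given in the sources used here. The authors deposited whole-number read counts per gene and, for the same 21676 genes, FPKM values. Per the file headers columns are named Con, KD1 and KD2 with replicates 1 to 3, and KD1 and KD2 were matched to shAD4-1 and shAD4-2 by number.

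The count test used edgeR 4.0.16 (R 4.3.3): filterByExpr with the groups kept 13807 genes with 99.968% of the reads, libraries were scaled by TMM, and all 9 libraries entered 1 quasi-likelihood fit with the group as its only term. The Benjamini-Hochberg adjustment ran over all tested genes, with a threshold of 0.05 and no fold minimum. SEs are the log2 fold change over the square root of its F statistic, and intervals are at 95%. CPM are counts scaled by library size and TMM factor. Ratios between genes used the deposited FPKM, with exact permutation tests in scipy 1.17.1. The alternatives were RLE scaling, DESeq2 1.42.0, no filter, a fit of only the 2 groups at issue, a replicate block, leaving out each library, and, for the ratios, a pseudocount of 1 FPKM.

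The members and gene lists were chosen with earlier results of these data known. All 10 members are named. From each list of other pathway genes up to 3 were named, those with the smallest p over both comparisons with control, taking the larger p of each gene, and Yap1, Wwtr1, Wwc1, Stk38 and Stk38l were always named; 2 genes chosen by these rules are not reported here. The ratio of Sav1 to Stk3 plus Stk4 and the values of Tead1, Tead2 and Tead3 were added after the data were seen.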

Additional observations from a re-analysis of the deposited data

Results flagged for a closer look

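The effects of the hairpins against the same control libraries differed for 4 of the 10 members, by edgeR's test of shAD4-2 against shAD4-1 with Benjamini-Hochberg adjustment. Of all tested genes 27.4% were called in that test. The log2 fold change was 0.20 for Nf2, the merlin gene, and 0.13 for Lats1. It was -0.26 for Stk3, which encodes MST2, and -0.25 for the coactivator gene Mob1b. For Nf2 and Stk3 the libraries of the hairpins did not overlap, and for Mob1b they did. As given above, the calls for Nf2 and Stk3 held when any library was left out. The call for Lats1 was lost without any single hairpin library, and that for Mob1b without some of them.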

How the results depend on the processing

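With shAD4-1 against control all 10 members kept direction and call under the 14 alternatives (140 values). With shAD4-2 137 of 140 values did, the exceptions being those of Mob1b in the report. Between the hairpins 122 of 140 did. There the members called numbered 2 to 5 when libraries were left out, and the values of members not called changed sign for Lats2 without the filter (-0.0019) and, when libraries were left out, for Lats2 (-0.034 to 0.049) and Taok1 (-0.027 to 0.051); the cause was not tested. When a library was left out, the Mob1b over Mob1a log2 ratio of shAD4-2 against control, -0.03, ran from -0.10 to 0.0074. Members called with shAD4-2 numbered 9 or 10 when libraries were left out, and counts of all genes called stayed within 1.5 times in all alternatives. With the replicate number as a block 9375 genes were called for shAD4-2, 8833 for shAD4-1 and 3511 between the hairpins, beside 9522, 8968 and 3777, and Lats1 was no longer called between the hairpins (adjusted p = 0.0547). Same-numbered libraries did not deviate together (r across genes -0.124 to 0.00225), and 0 of 6 libraries in each comparison correlated best with the library of the same number, so the numbers were not taken as pairs. Depth limits Mob1b most, at 744 to 1229 reads a library.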

Other observations

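The gene ontology term for Hippo signalling in the deposited annotation gives another list, with 18 genes, of which 7 are members (the LATS and MST kinases, Sav1 and the MOB1 genes). Nf2, Taok1 and Wwc2 do not carry the term there. Of the 10 other tested genes with the term, 8 were called higher and 2 were not called with shAD4-2 (edgeR, adjusted p under 0.05; 34.2% of all genes were called higher), and 9 were higher and 1 was not called with shAD4-1 (32.7% of all genes). Their median log2 fold changes were 0.23 and 0.32. These genes can also be in the pathway lists above, and the overlap was not counted, so these counts cannot be taken as separate from those above. Amotl2, an angiomotin family protein that binds YAP1 and LATS kinases, stood at 0.42 with shAD4-2 and 0.70 with shAD4-1, and the hairpins differed (log2 fold change -0.29, adjusted p = 0.00024). It was chosen after its values were seen.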
